A study of Mus musculus with 10 samples.

Results

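The enzymes and scaffolds that copy the genome in S phase are described here in mouse bone marrow progenitor cells. The members are the genes of the authors' deposited table whose symbol names a subunit of the origin recognition complex, the minichromosome maintenance (Mcm) proteins, the GINS complex, replication factor C, replication protein A, primase or the replicative polymerases alpha, delta and epsilon, together with Pcna, Fen1, Lig1, Cdc6, Cdt1, Gmnn, Tyms, Rrm1, Rrm2 and Cdc45. By this rule on names 50 of the 12791 rows are members. The rule uses no measured value, and each of the 50 has a value in both comparisons. The pattern also takes in Mcm3ap, which encodes an mRNA export factor, and Mcm8 and Mcm9, which act in recombination repair.

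The cells were sorted from bone marrow of C57BL/6 mice for c-Kit, without lineage markers and without Sca-1, the surface profile of committed hematopoietic progenitors. The labels describe 4 KDR-negative and 3 KDR-positive libraries from mice with GL261, a mouse glioma line, at tumor stage week 4, and 3 libraries of naive mice without a tumor. KDR, a receptor for vascular endothelial growth factor, was read through GFP placed in its gene, so that the mice with a tumor carry the knock-in allele. Whether the naive mice carry it too is not given in the labels, nor do they say that replicate libraries stem from different animals, so that p-values may measure technical spread only. The table gives 2 comparisons between groups without naming the groups. They are called the first and the second here, and in each a positive fold change means a higher level in what is called the numerator group, set against the denominator group. Levels in the denominator groups of the 2 comparisons match closely, so these are treated as the same libraries, and the comparisons are not independent. The table has no value per library. Levels per group were therefore derived from the deposited mean and fold change, in the CPM of the table's header, a unit in which counts are scaled to the same total in each library. The levels derived here do not sum to the same total in both groups, as given with the first results, and the sources used here do not say how the unit was scaled. What a level or a share of the total means in absolute terms is therefore in doubt. The levels carry no standard deviation, and depth is unknown.

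Copying DNA starts with licensing. The origin recognition complex, Cdc6 and Cdt1 load the ring-shaped Mcm helicase onto origins before S phase, and geminin, encoded by Gmnn, blocks Cdt1 afterwards. In S phase Cdc45 and GINS turn the ring into a running helicase, primase and polymerase alpha start each strand, and polymerases epsilon and delta extend them, held to DNA by the sliding clamp PCNA, which replication factor C loads. Many of these genes are targets of E2F transcription factors, and progenitor cells of the marrow divide rapidly and express them broadly.

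Stretches of DNA just before the transcription start are shown for 5 members whose expression is described below, 4 that were higher or lower on the deposited scale and Mcm5, whose promoter carries overlapping matches. Each gives the last 180 bases before the start in RefSeq GRCm38.p6, 5′ to 3′ on the strand of the gene, at chr2:132253181-132253360 (minus strand) for Pcna, chr1:128359706-128359885 (minus) for Mcm6, chr5:138171884-138172063 (minus) for Mcm7, chr8:75109329-75109508 (plus) for Mcm5 and chr2:5012792-5012971 (minus) for Mcm10. Of several annotated starts the one with most matches was taken. Capitals mark letters of the E2F consensus.
Pcna: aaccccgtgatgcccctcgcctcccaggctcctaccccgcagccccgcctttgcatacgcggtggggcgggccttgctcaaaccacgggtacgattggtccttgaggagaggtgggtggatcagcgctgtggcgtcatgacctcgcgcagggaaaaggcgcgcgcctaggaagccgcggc
Mcm6: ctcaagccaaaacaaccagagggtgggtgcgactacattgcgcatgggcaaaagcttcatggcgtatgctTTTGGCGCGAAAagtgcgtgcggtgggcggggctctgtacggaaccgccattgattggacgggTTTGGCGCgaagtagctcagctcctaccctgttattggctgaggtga
Mcm7: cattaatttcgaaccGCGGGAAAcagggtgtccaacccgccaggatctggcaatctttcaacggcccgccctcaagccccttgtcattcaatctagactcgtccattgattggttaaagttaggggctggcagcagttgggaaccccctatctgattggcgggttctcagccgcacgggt
Mcm5: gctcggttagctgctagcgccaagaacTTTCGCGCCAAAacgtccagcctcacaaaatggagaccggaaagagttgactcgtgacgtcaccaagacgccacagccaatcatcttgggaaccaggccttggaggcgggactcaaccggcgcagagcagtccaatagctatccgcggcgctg
Mcm10: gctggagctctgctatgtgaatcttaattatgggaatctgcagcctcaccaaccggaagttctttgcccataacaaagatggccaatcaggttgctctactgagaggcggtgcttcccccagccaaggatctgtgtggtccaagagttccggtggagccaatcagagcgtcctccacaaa
The letters searched were TTTCCCGC, TTTCGCGC, TTTGCCGC and TTTGGCGC and their reverse complements GCGGGAAA, GCGCGAAA, GCGGCAAA and GCGCCAAA, on both strands, in the 250 bases before the start. Matches may overlap, as in the runs of capitals of Mcm6 and Mcm5. Of the 42 members with a promoter entry 10 (23.8%) held at least 1 match at any annotated start, against 2.16% of 27025 genes with an entry and 3.95% of the 8967 that are also in the table. Those 10 are Cdc6, Gins3, Mcm5, Mcm6, Mcm7, Orc1, Orc3, Pola1, Pole4 and Rfc3. The CCAAT box, CCAAT or its complement ATTGG, stood in 26 of the 42 (61.9%), among them all 5 shown, against 40.8% of the genes of the table. A match describes these letters and is not evidence of binding.

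In the first comparison the replication genes did not move as a block. Of the 50 members 6 were higher in the numerator group, Pcna, Mcm7, Mcm6, Rpa3, Rfc5 and Rfc2, and 2 were lower, Mcm10 and Pole (adjusted p under 0.05 over all rows). The 8 genes make 16% of the members, beside 22.3% of all rows called in either direction. Members called higher were 12%, against 18.8% of all rows of the authors' deposited table, and members called lower 4%, against 3.49% of all rows, so both shares lie near or below the background. At an unadjusted p under 0.05 the members counted 10 higher (20%, against 22.4% of all rows) and 7 lower (14%, against 8.33%), or 34% in either direction, against 30.8% of all rows. In bulk samples fewer cells of a type and less RNA per cell cannot be told apart. The median log2 fold change of the members was -0.01 in the authors' deposited table, beside -0.13 over all rows. Above 0 were 24 members, with the others below, beside 44.8% of all rows above 0. Relative to the median of all rows the 8 called members keep their directions, while the median of the members becomes 0.12 and Gins2, Gins4, Prim1 and Rfc3 lie above 0. The levels implied in the numerator group sum to 2127125 CPM, against 756537 CPM in the denominator group. If both totals are set equal, every log2 fold change drops by 1.49. That leaves 1 of the 50 members, Pcna, above 0, beside 12.1% of all rows.

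**Figure D1:**
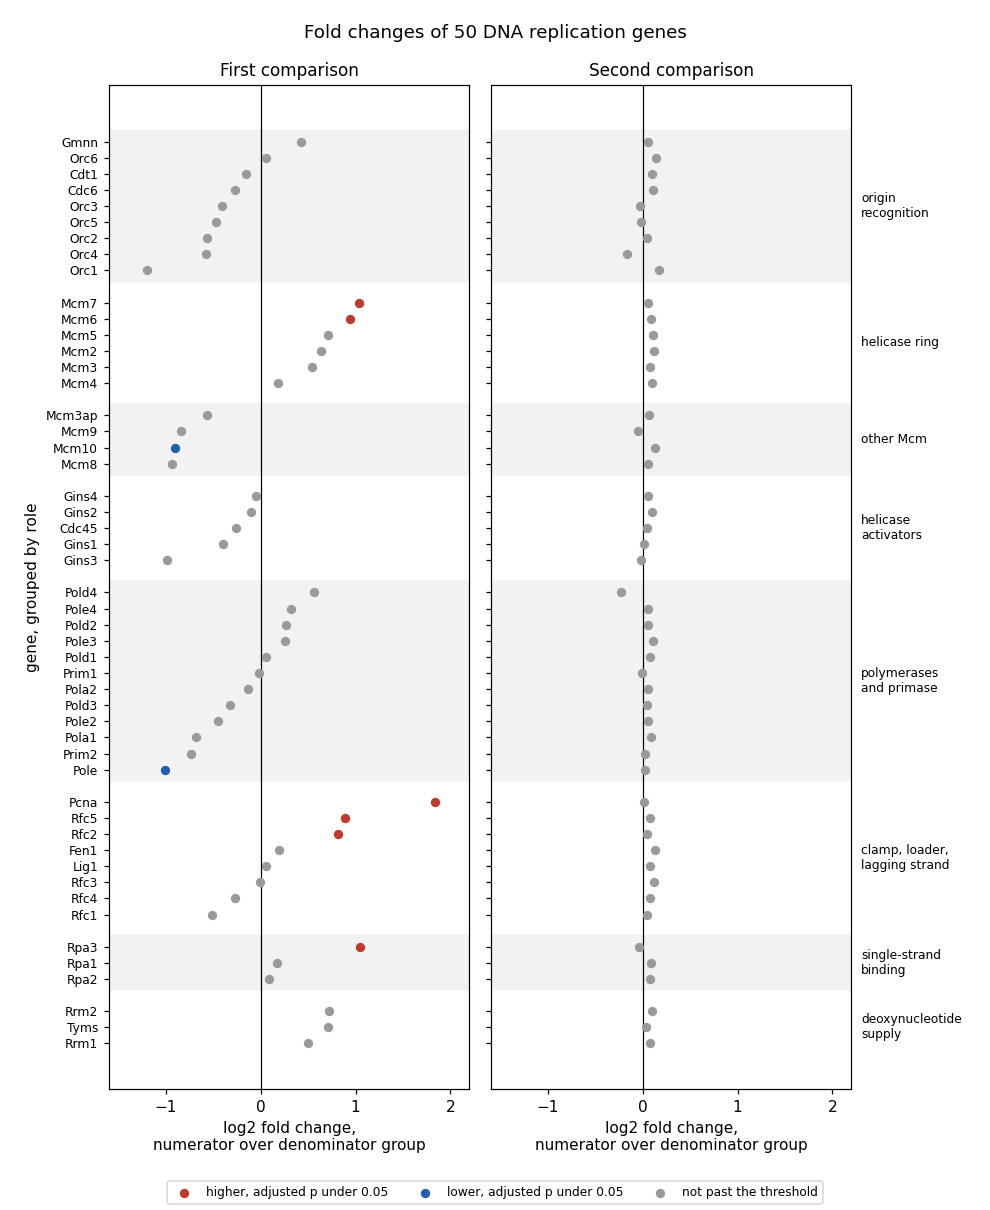
Log2 fold changes of the 50 replication genes (x axis, numerator over denominator group; genes down the page, grouped by role) in the first comparison on the left and the second on the right, with genes past an adjusted p of 0.05 in red (higher) or blue (lower). First-comparison values run from -1.20 for Orc1 to 1.83 for Pcna, and second-comparison values stay between -0.23 and 0.17 with none past the threshold.

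Pcna, the sliding clamp, had the largest change of the module. Its implied level was 1778 CPM in the numerator group of the first comparison, against 499 CPM in the denominator group. The authors' deposited table gives Pcna a log2 fold change of 1.83, a 3.56-fold difference (adjusted p = 1.3e-09), and at equal totals it would be 0.34. The numerator group of the second comparison stood at 487 CPM, against 483 CPM for the denominator group derived there.

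Genes of the clamp loader did not move together. Replication factor C is a pentamer that opens the clamp and closes it around DNA. Rfc5 was at 119 CPM in the first numerator group, against 64.4 CPM in the denominator group, with a log2 fold change of 0.89 per the authors' deposited table (adjusted p = 0.017). For Rfc2 the levels were 147 and 83.3 CPM in the numerator and denominator groups, with 0.82 per the authors' deposited table (adjusted p = 0.020). The large subunit gene Rfc1 lay on the other side of 0, with 31.2 CPM in the numerator group, against 44.6 CPM in the denominator group, and did not pass (-0.51 per the authors' deposited table, adjusted p = 0.224). Rfc4 at -0.27 and Rfc3 at 0.00 in the authors' deposited table did not pass either. Of the enzymes that finish the lagging strand, the flap nuclease gene Fen1 stood at 0.20 and the ligase gene Lig1 at 0.06 in the authors' deposited table, both short of the threshold.

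The Mcm2 to Mcm7 ring, the motor of the fork, had all its genes on one side of 0. All 6 subunit genes lay above 0 on the deposited scale and all 6 below 0 at equal totals, and Mcm7 and Mcm6 passed the threshold. Mcm7 was at 330 CPM in the first numerator group, against 161 CPM in the denominator group, and stood at 1.04 per the authors' deposited table (adjusted p = 0.0033). For Mcm6 the implied levels were 187 CPM in the numerator group, against 97.0 CPM in the denominator group, with 0.95 per the authors' deposited table (adjusted p = 0.0050). These are also 2 of the members with E2F letters shown above, but Mcm5, which has them too, did not pass.

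Short of the threshold, Mcm5 had 120 CPM in the numerator group, against 73.3 CPM in the denominator group, and 0.71 per the authors' deposited table (adjusted p = 0.066). Mcm2 was at 123 CPM, against 79.1 CPM in the denominator group, with 0.64 per the authors' deposited table (adjusted p = 0.108). The levels of Mcm3 were 128 CPM in the numerator group and 88.4 CPM in the denominator group, with 0.54 per the authors' deposited table (adjusted p = 0.188). Mcm4 differed least, at 72.8 CPM in the numerator group, against 64.1 CPM in the denominator group (0.18 per the authors' deposited table, adjusted p = 0.758). The ring has its subunits in equal number, while these implied ratios of numerator to denominator level ran from 0.18 to 1.04 on the log2 scale.

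**Figure D2:**
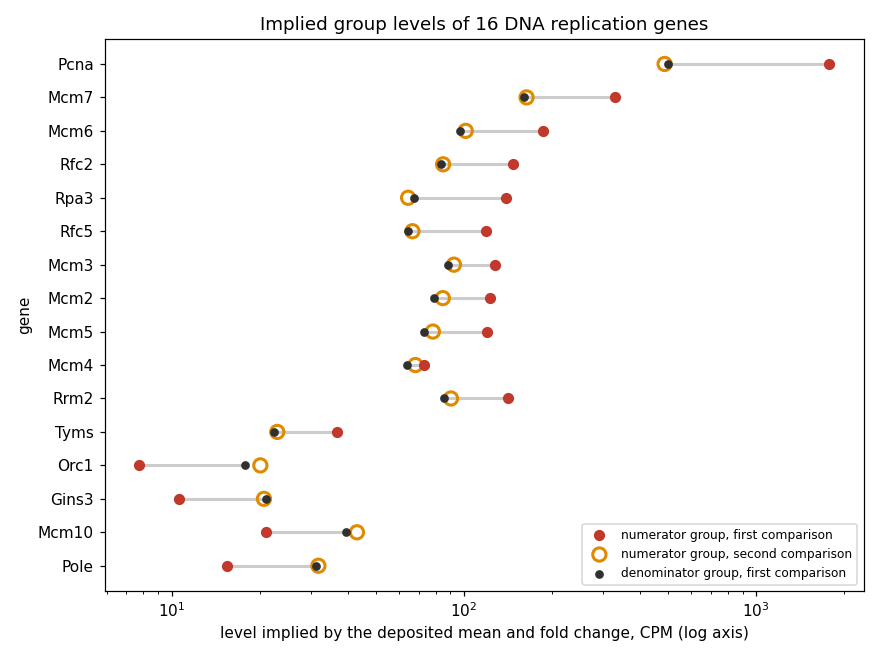
Levels implied for 16 replication genes, in CPM on a log axis, in the numerator group of the first comparison (red), the numerator group of the second (orange rings) and the denominator group of the first (black), with a grey bar joining the pair of the first comparison. The first numerator group lies to the right of the denominator group from Pcna to Tyms and to the left for Orc1, Gins3, Mcm10 and Pole, and the orange rings lie close to the black points throughout.

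The other genes named Mcm had negative fold changes. Mcm10, which binds the origin and helps to start the helicase, was at 21.1 CPM in the first numerator group, against 39.4 CPM in the denominator group, and was lower at -0.90 per the authors' deposited table (adjusted p = 0.022). Mcm8 at -0.93 (adjusted p = 0.160), Mcm9 at -0.84 and Mcm3ap at -0.56 in the authors' deposited table did not pass. With the ring above 0 and these 4 below it, the shared name marked no shared direction on the deposited scale. Against rows of the same mean level, neither the ring genes nor these 4 lay above the median. All of them were also below 0 at equal totals.

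Among the licensing genes 7 of 9 were below 0, and none passed. Orc1, the subunit whose protein level cycles with the division of the cell, had 7.74 CPM in the numerator group, against 17.8 CPM in the denominator group. Its log2 fold change of -1.20 per the authors' deposited table was the most negative of the module and did not pass (adjusted p = 0.070). Orc2, Orc3, Orc4 and Orc5 lay between -0.57 and -0.41 in the authors' deposited table, while Orc6 stood at 0.06. For the loaders, Cdc6 was at -0.27 and Cdt1 at -0.15 in the authors' deposited table. Gmnn, the gene of the Cdt1 inhibitor, stood at 0.43 per the authors' deposited table (adjusted p = 0.347). Its levels were 97.3 CPM in the numerator group, against 72.4 CPM in the denominator group.

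The helicase activators were all below 0 on the deposited scale as well, again without a call, though Gins2 and Gins4 lie above 0 relative to the median of all rows. Gins3 was at 10.6 CPM in the first numerator group, against 21.0 CPM in the denominator group (-0.99 per the authors' deposited table, adjusted p = 0.12). Gins1 at -0.40, Cdc45 at -0.26, Gins2 at -0.10 and Gins4 at -0.05 in the authors' deposited table were closer to 0. GINS is a complex of 4 subunits, and its genes thus spread over nearly 1 log2 unit.

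Among polymerase genes, Pole was the only one to pass. It encodes the catalytic subunit of polymerase epsilon, the main leading strand enzyme, and had 15.5 CPM in the numerator group, against 31.3 CPM in the denominator group (-1.01 per the authors' deposited table, adjusted p = 0.035). Its partners did not pass, with Pole2 at -0.45 and the small histone-fold subunits Pole3 and Pole4 at 0.26 and 0.32 in the authors' deposited table. Primase and polymerase alpha subunits ran from -0.73 for Prim2 (adjusted p = 0.066) over Pola1 at -0.69 and Pola2 at -0.14 to Prim1 at -0.02 in the authors' deposited table. In polymerase delta, the lagging strand enzyme, the catalytic subunit gene Pold1 stood at 0.06 in the authors' deposited table. Pold2 was at 0.26, Pold3 at -0.32 and Pold4 at 0.56 per the authors' deposited table, with 0.179 as the adjusted p of Pold4. The levels of Pold4 were 67.0 CPM in the first numerator group, against 45.4 CPM in the denominator group. The catalytic subunit gene had the most negative value in epsilon, but Prim2 lay below Pola1 in alpha and Pold3 below Pold1 in delta, and differences between genes were not tested.

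Replication protein A coats single-stranded DNA as a trimer, and its smallest subunit gene stood apart from the others. Rpa3 was at 140 CPM in the first numerator group, against 67.7 CPM in the denominator group, and was higher at 1.05 per the authors' deposited table (adjusted p = 0.0058). Rpa1 at 0.17 and Rpa2 at 0.08 in the authors' deposited table did not pass.

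Enzymes that supply deoxynucleotides lay above 0 without passing. Rrm2, the regulated subunit of ribonucleotide reductase, had 141 CPM in the numerator group, against 85.8 CPM in the denominator group (0.72 per the authors' deposited table, adjusted p = 0.075). Rrm1, the large subunit, was at 96.0 CPM, against 67.9 CPM in the denominator group (0.50 per the authors' deposited table, adjusted p = 0.254). Tyms, which makes thymidylate, had 36.7 CPM in the numerator group, against 22.5 CPM in the denominator group (0.71 per the authors' deposited table, adjusted p = 0.114). At equal totals these 3 genes would lie between -0.99 and -0.77.

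Across the module the fold change followed the level of the gene. The 6 higher members all had a mean above 6 log2 CPM, and the 2 lower ones a mean of 4 to 5 log2 CPM. Between 6 and 7 log2 CPM 3 of 16 members were higher, while 51.6% of all 1189 rows of that level were. Between 5 and 6 log2 CPM none of 19 members was higher, against 16.1% of 2396 rows, and between 7 and 8 both members were, as were 97.0% of 460 rows. At 4 to 5 log2 CPM 2 of 8 members were lower, against 5.73% of 2843 rows. Over the 50 members Spearman's rho between fold change and mean level was 0.87, and with the denominator level taken from the second comparison it was 0.78. Over 7819 rows in the members' range of levels that have an annotated transcript length the values were 0.64 and 0.33. These correlations run across genes of the same libraries, share depth and scaling, and are given as descriptions.

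**Figure D3:**
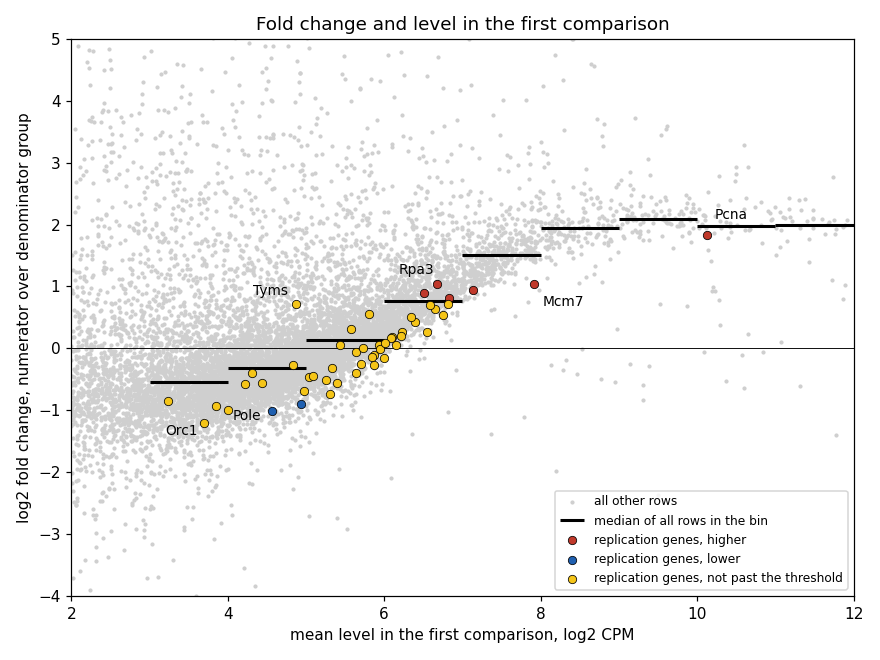
Log2 fold change (y axis, numerator over denominator group) against mean level (x axis, log2 CPM) in the first comparison for all rows (grey; rows outside the axes are not drawn), with the median of all rows per bin of 1 log2 CPM as black lines and the 50 replication genes as larger points. The replication genes climb with level as the black lines do, and most lie under the line of their bin.

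Set against genes of the same level, most replication genes lay low. Of the 50 members 43 had a fold change under the median of all rows in their bin of 1 log2 CPM, with a median difference of -0.32 (log2). By denominator level, a grouping added after the data had been seen, 45 lay under it, with a median difference of -0.38. Among the genes called higher, Pcna was 0.14 below the median of its level on the log2 scale (difference -0.14), and Mcm7 and Mcm6 had differences of -0.48 and -0.56. Rpa3 at 0.28, Rfc5 at 0.12 and Rfc2 at 0.05 were above the median of their level. The 7 members above it also included Tyms, with the largest difference at 1.02, Pold4 at 0.43, Pole4 at 0.19 and Cdc6 at 0.05. The most negative differences were those of Prim2 at -0.86, Lig1 at -0.71, Pole at -0.70 and Orc2 at -0.69. The median of all rows rose from 0.13 at 5 to 6 log2 CPM to 0.77 at 6 to 7 and 1.51 at 7 to 8. The difference of a gene near a bin edge therefore depends strongly on its bin. Rpa2, with a mean of 6.01 log2 CPM, had -0.69 by mean level and -0.02 by denominator level. Cdt1, with a mean of 6.00 log2 CPM, had -0.28 and -1.16. No test applies to differences from the median of a level, since the table holds no spread between libraries.

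**Figure D4:**
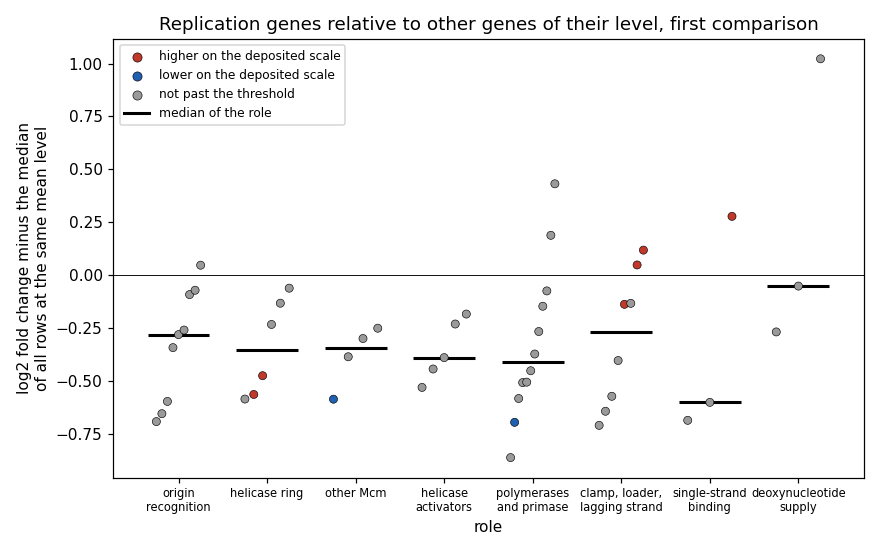
Log2 fold change of each replication gene in the first comparison minus the median of all rows at the same mean level (y axis), by role (x axis), colored by its call on the deposited scale, with a black line at the median of the role. All 8 role medians lie below 0, from -0.60 for single-strand binding to -0.05 for deoxynucleotide supply, and Tyms stands highest at 1.02. Values of genes near a bin edge depend on the bin, and the single-strand binding median is that of Rpa1, with a mean of 6.09 log2 CPM.

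As a share of all implied CPM the module was smaller in the first numerator group. The 50 genes sum to 5049 CPM there, against 3209 CPM in the denominator group, which is 0.237% of the numerator total and 0.424% of the denominator total. Without Pcna the sums were 3272 CPM in the numerator group and 2710 CPM in the denominator group, or 0.154% and 0.358% of those totals. In the second comparison the module took 0.456% in the numerator group and 0.427% in the denominator group.

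Transcript length was also compared, with the longest protein-coding transcript of each gene in GENCODE M21. Members over 5000 bases (Mcm3ap, Pola1, Pole and Rpa1) had, from the authors' deposited table, a median of -0.63, beside -0.46 for 1400 rows of that length in the same range of levels. The 8 members of up to 1500 bases had a median of 0.03, beside 0.70 for 1201 such rows. In the bins between, divided at 2500 and 3500 bases, the member medians were -0.02, 0.30 and -0.27 with rising length. Rows of those bins had medians of 0.28, 0.02 and -0.13. Spearman's rho between fold change and length was -0.27 over the members and -0.39 over the rows. Reads of overlapping genes are a further limit, since use of strand in counting is not given. For called members the largest overlaps of exons were Rfc2 with Lat2 (952 bases), Rfc5 with Wsb2 (499) and Mcm7 with Ap4m1 (321). Each is on the opposite strand, and Mcm7 also shares 84 bases with the microRNA gene Mir25 on its own strand. Members without a call had larger ones on the opposite strand, such as Gins2 with Gse1 (2758), Mcm9 with Asf1a (1748) and Orc2 with Nif3l1 (1150).

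The E2F letters did not go with one direction. The 10 members that hold them had a median log2 fold change of -0.13, from -1.20 for Orc1 to 1.04 for Mcm7 in the authors' deposited table, and 2 were called. The 32 members with an entry and no match had a median of 0.06, from -0.93 for Mcm8 to 1.83 for Pcna in the authors' deposited table, and 4 were called.

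In the second comparison no replication gene passed, at the adjusted threshold or at an unadjusted p under 0.05. The sources used here do not name the program behind these p-values, and of all rows 0.109% passed at the adjusted threshold and 0.336% at the unadjusted one. The smallest unadjusted p of the module was 0.446, for Pold4 at -0.23 in the authors' deposited table, whose implied level was 38.7 CPM in the numerator group, against 45.4 CPM in the denominator group. Orc1 had the highest value, 0.17 in the authors' deposited table, with 20.1 CPM in the numerator group, against 17.8 CPM in the denominator group. All 6 ring genes lay between 0.06 and 0.12 in the authors' deposited table. Of the 50 members 42 were above 0, with a median of 0.06, while 50.4% of all rows were above 0 with a median of 0.00. Rows of the members' levels lay higher than that. Between 5 and 6 log2 CPM 66.7% of rows and 16 of 19 members were above 0, and between 6 and 7 log2 CPM 77.5% of rows and 15 of 16 members, by the mean level of the first comparison. Relative to rows of the same level the median difference of the members was 0.02.

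Neighbouring steps of S phase, drawn up as lists with earlier results of these data known, were counted in the first comparison against 18.8% of all rows called higher and 3.49% called lower, and the share called higher was far larger among rows of high level, as given above. Against rows of the same mean level the medians of all 7 lists were negative, from -0.46 for firing and fork factors to -0.14 for nucleotide synthesis. In the list of nucleotide synthesis outside the module 8 of 21 genes were higher and none lower, with a median of 0.49. Nme2, a nucleoside diphosphate kinase, stood at 2.16 per the authors' deposited table (adjusted p = 1.1e-12), the guanine nucleotide enzyme Impdh2 at 1.85, Nme1 at 1.66 and the dUTPase gene Dut at 1.26, and only the first 3 of these stay above 0 at equal totals. Thymidine kinase, Tk1, the salvage route to thymidylate, had 212 CPM in the numerator group, against 94.2 CPM in the denominator group.

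In the list of chromatin assembly behind the fork 5 of 13 genes were higher and none lower, with a median of 0.16, and none of the 5 stays above 0 at equal totals. They were led by the histone chaperones Rbbp7 at 1.30 and Rbbp4 at 1.03, with Slbp, which binds histone mRNA, at 1.07 and Uhrf1, which guides maintenance methylation, at 0.97 in the authors' deposited table. Of the genes named for the assembly factor itself, Chaf1a at -0.37 and Chaf1b at 0.01 in the authors' deposited table did not pass.

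Factors that fire origins or travel with the fork gave 2 higher and 3 lower genes of 23, with a median of -0.48. Rnaseh2c, a subunit of the enzyme that removes ribonucleotides from DNA, stood at 1.18 per the authors' deposited table, and Chtf8 of the alternative clamp loader had 153 CPM in the numerator group, against 76.4 CPM in the denominator group. Both fall below 0 at equal totals. Atad5, which unloads PCNA, stood at -1.41 (adjusted p = 0.010) and the helicase gene Recql4 at -1.19 in the authors' deposited table. Dtl, which marks Cdt1 for destruction in S phase, was also lower, at -0.79 per the authors' deposited table (adjusted p = 0.043).

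Cyclins, their kinases and E2F factors counted 3 higher and 2 lower of 26, with a median of -0.18. Tfdp1, the partner of E2F proteins, was at 497 CPM in the numerator group, against 170 CPM in the denominator group (1.55 per the authors' deposited table, adjusted p = 5.8e-06). Cdk4 at 1.40 and Ccnd3 at 1.33 in the authors' deposited table were higher too, though of these 3 genes Tfdp1 alone stays above 0 at equal totals. Cdk6 at -1.14 in the authors' deposited table was lower, as was Cdkn1a, the inhibitor p21, at -1.73. E2f1 itself stood at 0.00 in the authors' deposited table, with 42.2 CPM in both groups.

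The replication checkpoint, which slows the cycle when forks stall, had 1 lower and no higher gene of 10, with a median of -0.73. That gene was Wee1, a kinase that restrains Cdk1, at -1.03 per the authors' deposited table (adjusted p = 0.011). The list of other DNA polymerases, which also holds the mitochondrial Polg and Polg2, had 2 lower of 14, with a median of -0.65. The 2 lower genes were Poll at -1.27 and the lymphoid enzyme Dntt at -2.92 in the authors' deposited table. Markers of mitosis, the phase that follows replication, had 5 higher of 20 and none lower, with a median of -0.22. Ccnb1 stood at 1.71, Ube2c at 1.32, Birc5 at 1.01 and Cdc20 at 0.95 in the authors' deposited table, with Ccnb1 alone above 0 at equal totals. In the second comparison none of the genes in these 7 lists passed the threshold, and their medians lay between -0.04 and 0.07.

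Markers of other cell types moved with the first comparison, in which 18.8% of all rows were called higher and 3.49% lower. All 17 measured macrophage markers were higher, summing to 5484 CPM in the numerator group, against 288 CPM in the denominator group, and so were all 15 of megakaryocytes (2303 CPM, against 290 CPM). Neutrophil genes were higher for 10 of 12, and erythroid genes for 7 of 15 with 3 lower. The erythroid list summed to 30246 CPM in the numerator group, against 2200 CPM. B cell markers were lower for 8 of 13 and higher for 1, T and NK cell markers lower for 4 of 7 and higher for 1, and endothelial markers higher for 2 of 9. At under 1 CPM in the numerator group were 4 T and NK cell markers, 2 endothelial ones and 1 B cell one. Of 10 genes of the progenitor gate 3 were higher and 1, Flt3, was lower. At equal totals all macrophage and neutrophil genes called higher stay above 0, as do 14 megakaryocyte and 5 erythroid genes. The B cell, endothelial and gate lists then keep 1 such gene each, and the T and NK cell list none. Kit, which defines the sort, was present at 38.8 CPM in the numerator group, against 58.6 CPM in the denominator group (adjusted p = 0.128 in the authors' deposited table), and Ly6a, which encodes the Sca-1 that the gate leaves out, at 37.2 and 27.6 CPM in those groups. In the second comparison the macrophage list had a median of -1.82, summing to 168 CPM in the numerator group, against 282 CPM in the denominator group. Its gene C1qa was the only one of these lists to pass, at -2.41 per the authors' deposited table (adjusted p = 0.020). Medians of the other lists ran from -0.44 for megakaryocytes to 0.19 for erythroid genes. What part cells of these types had in the values of the replication genes was not tested.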

How the data were processed

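RNA of sorted marrow progenitors was sequenced from TruSeq libraries, per the labels' protocols. Bowtie 0.12.2 and the build mm8 are named without roles, per the submitters' processing notes. The sources used here do not give the counting program, the annotation or the testing program. Per the file headers, the authors deposited for each gene and comparison a log2 fold change (base read from the values), a mean level in log2 CPM, a p-value, and the p-value after adjustment. The deposited adjusted p-values equal a Benjamini-Hochberg adjustment over 12791 rows. No value per library is given, so planned tests on libraries were not run.

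Group levels were derived by taking the deposited mean as the log2 of a weighted mean of both groups. Weights of 0.48 and 0.59 for the numerator groups gave the closest match of denominator levels over 9044 genes above 3 log2 CPM, with a median absolute deviation of 0.0020. The weight fit, the difference from genes of the same level and the adjustment were tested on simulated data. The simulated trend over level was flat within each bin, so that test could not show an effect of bin width. Genes were called at an adjusted p under 0.05. Transcript lengths came from GENCODE M21 by symbol (85.4% of names, all 50 members) and promoters from RefSeq GRCm38.p6 (42 members). Python 3.11.15 and pandas 2.3.3 were used. Members and lists were chosen with earlier results of these data known. All members are accounted for by role. Those past the threshold, Pcna, Mcm2 to Mcm7 and the largest change in each direction in each role, first comparison, are given in full. In the other lists up to 4 genes past the threshold with the smallest p are named. Dtl, Cdkn1a, Tk1, Chaf1a, Chaf1b, E2f1, Flt3, Kit, Ly6a and C1qa were named after their values were seen. So were the members singled out by their difference from genes of the same level. Alternatives covered the threshold, a floor of 4 CPM, the membership and the scaling.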

Additional observations from a re-analysis of the deposited data

How the results depend on the processing

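No paired analysis was possible because the table holds no value per library, and for the same reason leaving out replicates, another count test and another filter on counts were not run. In the first comparison the count of higher members, 6, was 10 at an unadjusted p under 0.05, and ran from 4 to 8 under the other alternatives. The count of lower members, 2, was 0 at an adjusted p under 0.01, 4 under 0.10, 7 at an unadjusted p under 0.05 and 1 without Mcm3ap, Mcm8, Mcm9, Mcm10 and Gmnn. The median of -0.01 became -1.50 at equal implied totals, 0.12 relative to all rows, -0.32 relative to rows of the same mean level, -0.38 by denominator level and 0.056 without those 5 genes. The second comparison had no call under any alternative run, and its median of 0.06 became 0.10 at equal totals, 0.019 by mean level and 0.026 by denominator level. Of the 8 called members, those whose fold changes turned negative at equal totals were Mcm6 (-0.55), Mcm7 (-0.46), Rfc2 (-0.67), Rfc5 (-0.60) and Rpa3 (-0.44). Among the same 8, Mcm6 (-0.56), Mcm7 (-0.48) and Pcna (-0.14) turned by mean level, and by denominator level, added after the data had been seen, Mcm6 (-0.067), Mcm7 (-0.83), Pcna (-0.21), Rfc2 (-0.20) and Rfc5 (-0.13). Members without a call turned too, and at equal totals Pcna alone of the 50 lies above 0, beside 12.1% of all rows. These follow from the construction of each scale. Depth and spread between libraries are unknown, so no interval can be set on any value.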
